A study of Mus musculus with 8 samples.

Results

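Vcam1 and a set of related adhesion genes were followed in KPC pancreatic tumors that grew in WT and in C3-/- mice. The set holds 10 of the 29968 genes in the count table and falls into receptors on the vessel wall (Vcam1, Icam1, Icam2, Sele and Selp) and integrin subunits on leukocytes and other cells (Itga4, Itgb1, Itgb7, Itgal and Itgb2). Vcam1 was selected on its difference between the genotypes in these same tumors, so its values are given as a description without a test. The other 9 genes were named as relatives or binding partners of Vcam1, and the question was whether they share its higher level in C3-/- hosts.

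Tumor RNA was sequenced from 4 WT and 4 C3-/- mice. All hosts were male, were 12 weeks old and received 250000 KPC cells of the line FC1245 in 50 µL of PBS in the tail of the pancreas, with an endpoint at day 14. WT hosts were C57BL/6J mice with intact complement C3, and C3-/- hosts carried the null allele of C3 on both chromosomes. The KPC cells came from 1 line, isolated from a pancreatic tumor of a KPC mouse, and keep their own C3 gene in both groups, so the deletion was confined to the host cells of each tumor. Each tumor came from its own mouse.

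To leave the blood, a leukocyte first rolls on selectins, then holds firmly to immunoglobulin-family receptors through its integrins, and then crosses the vessel wall. VCAM-1, the product of Vcam1, binds the integrins alpha4beta1 (Itga4 with Itgb1) and alpha4beta7 (Itga4 with Itgb7), while ICAM-1 and ICAM-2 bind LFA-1 (Itgal with Itgb2). Inflammatory cytokines switch on Vcam1, Icam1 and Sele in endothelial cells through NF-kB, and Vcam1 is also made by fibroblasts, pericytes, mesothelial cells and some macrophages.

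C3 itself, the deleted gene, had 210, 426, 226 and 324 CPM in WT tumors 1 to 4 and 109, 134, 100 and 101 CPM in C3-/- tumors 1 to 4, where CPM (counts per M) is the count of a gene relative to the total of its tumor after TMM normalization. The highest C3-/- tumor was thus lower than the lowest WT tumor, which fits the labels. The total count ran from 13.27 M to 23.35 M per tumor. Carcinoma markers (keratins, Epcam, Cdh1 and Muc1) were counted in all 8 tumors. Of the 10 adhesion genes, 9 passed the filter on low counts and entered the edgeR quasi-likelihood test with 16610 genes. Sele did not pass, and its estimate comes from a fit without that filter.

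Vcam1 encodes VCAM-1 and is found at chromosome 3 (mm39), minus strand, 115903598 to 115923337. It had 255, 336, 217 and 230 CPM in WT tumors 1 to 4 and 444, 477, 506 and 416 CPM in C3-/- tumors 1 to 4. All 4 C3-/- tumors were above all 4 WT tumors. Means were 260 ± 53.5 CPM (SD, n = 4) for WT and 461 ± 38.8 CPM (SD, n = 4) for C3-/- hosts, a ratio of means of 1.78 and a log2 fold change of 0.83 (SE 0.16). WT tumors varied more among themselves, with a coefficient of variation of 20.6% against 8.43% in C3-/- tumors. These values rest on 2883 to 9495 counts per tumor. In RNA from whole tumors, fewer cells of a type and less RNA per cell cannot be told apart, and this holds for every gene below.

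The other immunoglobulin-family receptors did not differ between genotypes beyond the spread between tumors. Icam1 encodes ICAM-1, the endothelial, epithelial and leukocyte receptor for LFA-1, and lies on chromosome 9 from 20927281 to 20940113. It had 133, 119, 112 and 107 CPM in the WT tumors and 120, 133, 118 and 106 CPM in the C3-/- tumors. The groups covered nearly the same range, with an estimated log2 difference of 0.02 (SE 0.12, 95% interval -0.24 to 0.28, Benjamini-Hochberg adjusted p = 0.999 in edgeR). Icam2, on chromosome 11 from 106268482 to 106278901, encodes a receptor for LFA-1 that resting endothelium carries. It had 2.55, 4.14, 5.12 and 3.11 CPM in WT tumors and 6.13, 3.08, 4.66 and 7.27 CPM in C3-/- tumors, so that 2 C3-/- tumors lay above the highest WT tumor and the groups overlapped. Its log2 fold change was 0.51 (SE 0.32, 95% interval -0.21 to 1.23, adjusted p = 0.992 in edgeR). With 1 tumor left out it ran from 0.32 without C3-/- tumor 4 to 0.7 without WT tumor 3 or without C3-/- tumor 2. It was 0.29 with the mean of the pan-leukocyte markers as a covariate and 0.66 with that of the endothelial markers.

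Of the endothelial selectins, Sele was near the lower limit of counting. Sele, on chromosome 1 from 163875803 to 163885246, encodes E-selectin, which endothelial cells make after exposure to cytokines. It had 1, 0, 0 and 13 counts in the WT tumors and 3, 4, 16 and 14 counts in the C3-/- tumors. A count of 0 allows up to 3 counts, which is 0.226 CPM in each of WT tumors 2 and 3, and this limit covers counting error only. WT tumor 4 was above the lower C3-/- tumors, and the groups overlapped. Without the filter, edgeR put the log2 fold change at 1.53 (SE 0.99, 95% interval -0.58 to 3.64, adjusted p = 0.81). It ran from 1.07 to 4.13 with 1 tumor left out, and the highest value, without WT tumor 4, rests on WT tumors with 1 count or none. A difference in Sele was not detectable at these low counts and with this spread between tumors. Selp, next to Sele on chromosome 1 from 163942833 to 163977595, encodes P-selectin, which endothelial cells and platelets keep in granules. It had 2.36, 1.43, 2.94 and 5.02 CPM in WT tumors and 2.01, 1.68, 2.02 and 6.02 CPM in C3-/- tumors. The fourth tumor of each genotype was the highest, and the other 3 C3-/- tumors were within the range of the WT tumors. For Selp the estimate was -0.02 on the log2 scale (SE 0.49, 95% interval -1.12 to 1.08, adjusted p = 0.999 in edgeR). It was 0.38 without WT tumor 4 and -0.64 without C3-/- tumor 4, so its direction is not fixed.

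The promoters of Icam1 and Sele are shown as those of the cytokine-induced receptors for which the RefSeq promoter table gave an entry. The RefSeq promoter table (GRCm38.p6) held entries for 6 of the 10 genes (Icam1, Sele, Selp, Itga4, Itgb1 and Itgb7). Each line gives the 250 bases before the start of the gene, 5′ to 3′, at chr9:21015690-21015939 (plus strand) for Icam1 and chr1:164047984-164048233 (plus strand) for Sele, with matches to either searched motif in capitals.
Icam1: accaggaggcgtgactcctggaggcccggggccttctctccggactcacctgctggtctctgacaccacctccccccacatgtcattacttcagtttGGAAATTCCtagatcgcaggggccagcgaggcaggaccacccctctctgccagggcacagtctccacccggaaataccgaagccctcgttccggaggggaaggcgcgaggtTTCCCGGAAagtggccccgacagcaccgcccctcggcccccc
Sele: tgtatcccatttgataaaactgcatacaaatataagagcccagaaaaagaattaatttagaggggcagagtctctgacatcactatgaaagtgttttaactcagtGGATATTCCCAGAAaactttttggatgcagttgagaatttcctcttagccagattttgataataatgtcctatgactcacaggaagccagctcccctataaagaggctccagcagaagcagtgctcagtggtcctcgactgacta
The searched motifs were a kappaB-like GGANNTTCC and a STAT-like TTCNNNGAA, on both strands, chosen after the sequences had been read. In Icam1 they matched at -153 to -145 and at -42 to -34 from the start, and in Sele at -145 to -137 and at -140 to -132, where the matches overlap. No match was present in the same window of Selp, Itga4, Itgb1 or Itgb7. Of 32851 promoters of the same length, 3.59% held the kappaB-like and 7.02% the STAT-like motif. A match describes these letters only, and the levels of Icam1 and Sele are those given above.

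**Figure D1:**
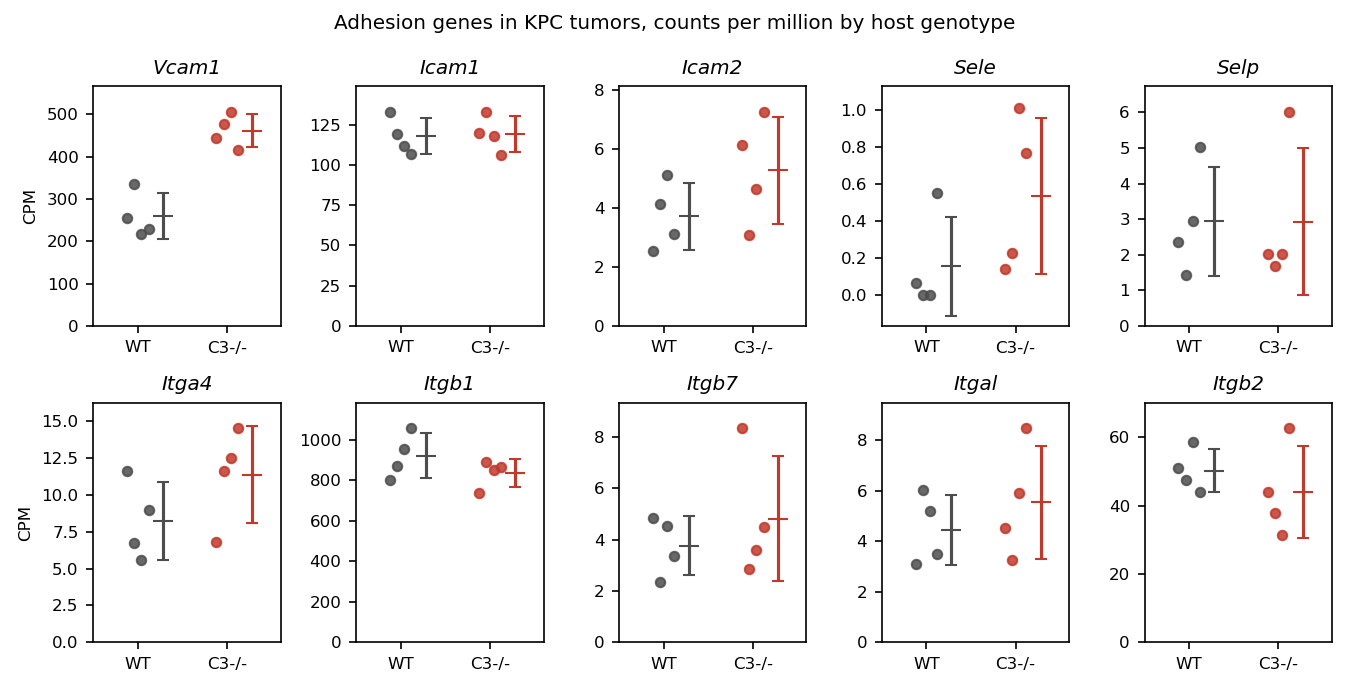
Each panel shows 1 adhesion gene, with CPM on the vertical axis (a linear scale of its own, with 0 marked), the 4 WT tumors in grey and the 4 C3-/- tumors in red, each point 1 tumor and the bar the mean ± SD. Vcam1 is the gene whose groups are apart (217 to 336 against 416 to 506 CPM), and the tumors of the 2 genotypes overlap in the other 9 panels.

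The integrin subunits that pair to bind VCAM-1 did not differ between genotypes beyond the spread between tumors. Itga4, on chromosome 2 from 79085770 to 79163467, encodes alpha4, the chain shared by the VCAM-1 receptors named above and carried by lymphocytes, monocytes and eosinophils. It had 11.6, 6.71, 5.57 and 8.98 CPM in WT tumors and 6.79, 11.6, 12.5 and 14.5 CPM in C3-/- tumors. Most C3-/- tumors reached or passed the highest WT tumor, but C3-/- tumor 1 was among the low values of the WT group. On the log2 scale the difference was 0.46 (SE 0.29, 95% interval -0.19 to 1.11, adjusted p = 0.992 in edgeR). With 1 tumor left out the estimate ran from 0.31 without WT tumor 3 to 0.67 without WT tumor 1, and it was 0.64 without C3-/- tumor 1. It was 0.17 with the mean of the acinar markers as a covariate and 0.54 with that of the pan-leukocyte markers. C3-/- tumor 1, the lowest of its group for Itga4, was the highest of all tumors for the acinar markers. Its partner Itgb1, on chromosome 8 from 129412135 to 129459681, encodes beta1, which pairs with many alpha chains and is made by nearly all adherent cells. It had 800, 870, 955 and 1057 CPM in WT tumors and 739, 891, 850 and 865 CPM in C3-/- tumors. All 4 C3-/- tumors were below the WT mean while the groups overlapped, and the log2 fold change was -0.14 (SE 0.14, 95% interval -0.44 to 0.17, adjusted p = 0.999 in edgeR). With 1 tumor left out it ran from -0.20 to -0.07, the latter without WT tumor 4. Itgb7, on chromosome 15 from 102124430 to 102140379, encodes beta7, which with alpha4 makes the receptor for gut homing. It had 4.85, 2.34, 4.52 and 3.36 CPM in WT tumors and 8.33, 2.86, 3.59 and 4.48 CPM in C3-/- tumors. Only C3-/- tumor 1 lay above the WT range. In edgeR the log2 fold change was 0.36 (SE 0.37, 95% interval -0.47 to 1.18, adjusted p = 0.999), and it was -0.05 without that tumor, 0.19 without WT tumor 2, 0.07 with the pan-leukocyte covariate and 0.71 with the acinar covariate.

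The chains of LFA-1, the leukocyte integrin that binds ICAM-1 and ICAM-2, had estimates on opposite sides of 0. Itgal, on chromosome 7 from 126895432 to 126934310, encodes the alpha chain and had 3.11, 6.03, 5.20 and 3.49 CPM in WT tumors and 4.54, 3.25, 5.93 and 8.48 CPM in C3-/- tumors. The groups overlapped apart from C3-/- tumor 4, and the log2 fold change was 0.32 (SE 0.34, 95% interval -0.43 to 1.07, adjusted p = 0.999 in edgeR). With 1 tumor left out it ran from 0.04 without C3-/- tumor 4 to 0.51 without C3-/- tumor 2, and with the acinar covariate it was 0.13. Itgb2, on chromosome 10 from 77366086 to 77401542, encodes the beta chain CD18, which LFA-1 shares with the myeloid integrins. It had 51.0, 47.5, 58.6 and 44.1 CPM in WT tumors and 44.0, 37.9, 31.5 and 62.7 CPM in C3-/- tumors. C3-/- tumors spread more widely, reaching below and above the WT range, and the log2 fold change was -0.19 (SE 0.20, 95% interval -0.64 to 0.26, adjusted p = 0.999 in edgeR). It ran from -0.41 without C3-/- tumor 4 to -0.07 without C3-/- tumor 3, and it was -0.31 with the pan-leukocyte covariate.

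Of the 9 other genes, 6 had an estimate above 0 and 3 below, and the tumors of the 2 genotypes overlapped in each of them. At an unadjusted p below 0.05 in edgeR there were 0 of the 9, where 5.11% of all genes passed. With Benjamini-Hochberg adjustment 0 of the 8 that were tested passed 0.05, but so did 0% of all genes, Vcam1 and C3 (adjusted p = 0.933) included, so the adjusted count does not tell the members apart from Vcam1. DESeq2, run on the same counts, called 0 of the 9 and 1 of the 10, which was Vcam1, against 0.0848% of the 18864 genes it tested. The call of Vcam1 by that tool repeats the contrast by which the gene was selected and is not read as a result. The groups did not overlap for 1 of the 10 genes, again Vcam1, against 3.73% of all genes in either direction and 2.28% with the C3-/- tumors above. The 95% intervals of the 9 others all held 0. They ended at 0.28 for Icam1, 0.17 for Itgb1 and 0.26 for Itgb2, and at 1.07 or above for Icam2, Sele, Selp, Itga4, Itgb7 and Itgal, for which a difference of up to that size was thus not excluded by the interval. The difference between any of these estimates and that of Vcam1 was not tested, since Vcam1 was selected on its own. Over all 16610 genes tested, the median log2 fold change was 0.

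**Figure D2:**
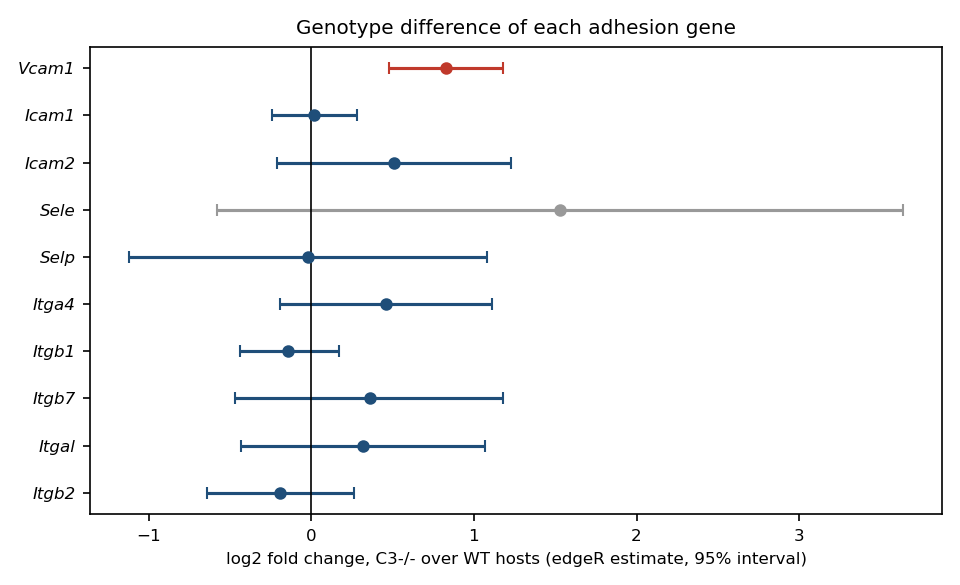
Plotted on the horizontal axis is the log2 fold change of each adhesion gene in C3-/- over WT hosts, as the edgeR estimate (point) with its 95% interval (bar), with Vcam1 in red as the gene selected on this value, and Sele in grey from the fit without a filter. The intervals of the other 9 genes all cross 0, and those of Icam1, Itgb1 and Itgb2 are the narrow ones among them. The bar of Vcam1 (0.48 to 1.18) is a description and not a test, because the gene was selected on this value.

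Levels were compared between genes per length, as deposited FPKM (fragments per kilobase of gene and per M of the tumor's total). Over the 8 tumors, Itgb1 had the highest mean level at 213 ± 23.0 FPKM (SD, n = 8), followed by Vcam1 at 40.2 ± 12.9, Icam1 at 26.9 ± 2.45 and Itgb2 at 15.3 ± 3.32 FPKM. Vcam1 had 29.0 ± 6.02 FPKM with WT and 51.3 ± 4.48 FPKM with C3-/- hosts (SD, n = 4 per genotype), and it was above Icam1 in 6 of 8 tumors, with overlapping ranges. Lower levels were found for Icam2 (2.34 ± 0.842 FPKM), Itgb7 (1.53 ± 0.660), Itgal (0.754 ± 0.273), Itga4 (0.693 ± 0.229), Selp (0.658 ± 0.374) and Sele (0.117 ± 0.131; SD, n = 8 each). Neighbours in this order from Icam2 down had overlapping ranges, whereas Itgb1 and Vcam1, Icam1 and Itgb2, and Itgb2 and Icam2 were each apart in all 8 tumors. Per length, with 13978 bases in the table, Itga4 was thus near the bottom of the order while its partner Itgb1 was at the top.

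**Figure D3:**
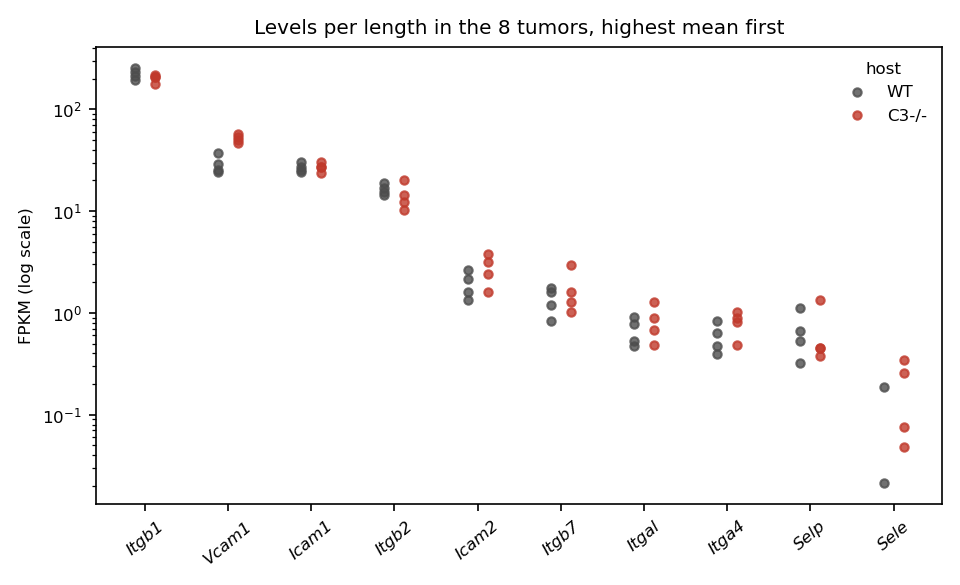
Deposited FPKM on a log axis for the 10 adhesion genes in order of their mean, each point 1 tumor, WT in grey and C3-/- in red; Sele was at 0 in WT tumors 2 and 3, which a log axis cannot show. Itgb1 (179 to 256 FPKM) stands above the rest, Vcam1, Icam1 and Itgb2 form the next levels, and the other 6 genes lie below 4 FPKM.

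The level of Vcam1 was next set against other transcripts of the same tumor, as the log2 CPM of Vcam1 minus that of Icam1 or minus the mean of a marker list. These ratios contain Vcam1 and are descriptions. Against Icam1 the log2 ratio was 0.94 to 1.5 in WT tumors and 1.84 to 2.10 in C3-/- tumors, so the genotypes were apart. Against 12 endothelial markers it was 2.85 to 3.33 in WT tumors and 3.61 to 4.40 in C3-/- tumors, and against 8 fibroblast markers -0.09 to 0.61 and 0.65 to 2.18. Against 5 mesothelial markers it was 4.04 to 5.17 and 5.79 to 6.60. In these comparisons every C3-/- tumor again lay above every WT tumor. Against 10 macrophage markers (1.30 to 1.82 and 1.79 to 2.99) and 8 markers of pericytes and smooth muscle (2.05 to 3.39 and 2.75 to 4.01) the genotypes overlapped.

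**Figure D4:**
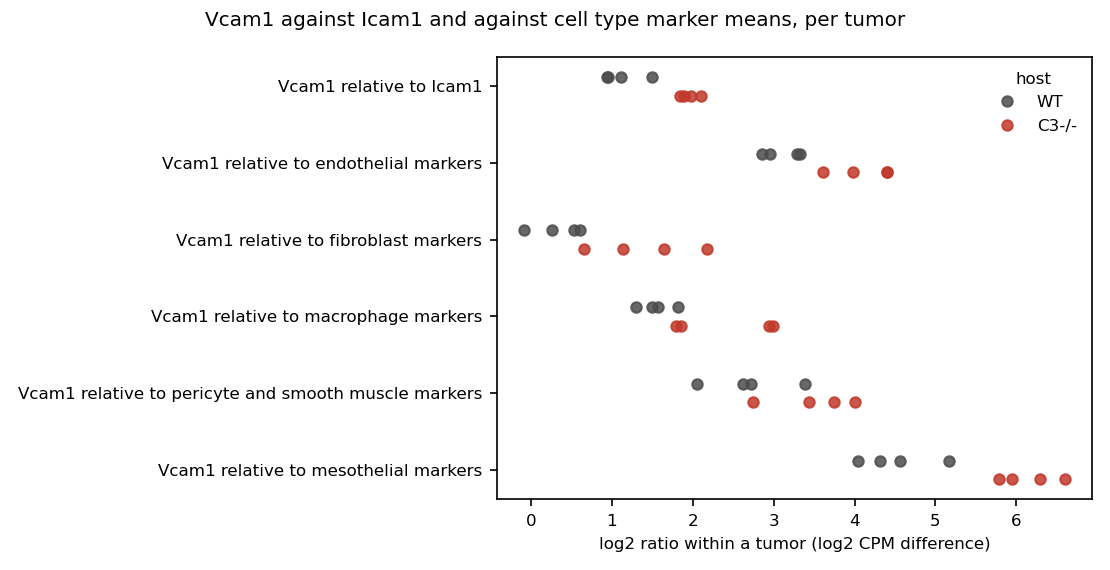
The horizontal axis gives the log2 ratio of Vcam1 to Icam1 or to the mean of a marker list within a tumor (a difference of log2 CPM), with 1 point per tumor, WT in grey and C3-/- in red. The genotypes are apart for Icam1 and the endothelial, fibroblast and mesothelial lists and overlap for the macrophage list and the list of pericytes and smooth muscle.

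The marker lists themselves moved between tumors, and their counts of genes are to be read beside 5.11% of all genes at an unadjusted p below 0.05 in edgeR, 3.73% without overlap and 0.0848% called by DESeq2. The 12 endothelial markers, all counted in every tumor, summed to 370 to 536 CPM in WT tumors and 352 to 527 CPM in C3-/- tumors, and 10 of the 12 had an estimate below 0. The 5 mesothelial markers all had an estimate below 0 with a median of -0.91 on the log2 scale, 3 of them at an unadjusted p below 0.05 in edgeR and 2 without overlap (Upk3b at 2.43 to 4.85 against 0.883 to 2.34 CPM and Lrrn4 at 1.55 to 3.47 against 0.784 to 1.31 CPM). Their sum, carried by Msln, overlapped (486 to 572 against 366 to 549 CPM). The 5 pan-leukocyte markers all had an estimate above 0, with sums of 188 to 245 CPM in WT tumors and 149 to 317 CPM in C3-/- tumors, and 1 of them, Ptprc (CD45), had an unadjusted p below 0.05 and no overlap (20.1 to 22.3 against 23.3 to 44.0 CPM). Lymphocyte markers were sparse, with sums of 6.93 to 7.53 CPM in WT tumors and 4.98 to 13.6 CPM in C3-/- tumors, and Cd3d, Cd3e, Cd3g, Ms4a1, Nkg7 and Ncr1 were at 0 in at least 1 tumor. Of the 3 lymphocyte and 6 neutrophil markers tested, 1 each was higher at an unadjusted p below 0.05. Macrophage markers summed to 1242 to 1525 CPM with WT and 952 to 2042 CPM with C3-/- hosts, fibroblast markers to 7281 to 10877 and 4317 to 11163 CPM, and markers of pericytes and smooth muscle to 379 to 1120 and 351 to 1065 CPM. Neutrophil markers (62.9 to 150 and 52.2 to 161 CPM) and carcinoma markers (6597 to 10966 and 5824 to 9685 CPM) overlapped as well, and all 7 carcinoma markers had an estimate below 0. Hepatocyte markers reached 17.0 to 87.6 and 11.5 to 23.3 CPM. The 5 that were tested in edgeR all had an estimate below 0 (median -3.26, log2), with 3 at an unadjusted p below 0.05. DESeq2, which did not use that filter, called 1 of the 8 genes of the hepatocyte list as lower. Acinar markers summed to 193 to 534 CPM in WT tumors, to 1911 CPM in C3-/- tumor 1 and to 39.6 to 67.3 CPM in the other 3 C3-/- tumors, which were below every WT tumor. Of the 10 acinar markers tested, 9 had an edgeR estimate above 0 (median 0.8, log2). The mean log2 CPM of the list differed by -2.33 (C3-/- minus WT), so its direction depends on the measure and on C3-/- tumor 1. Skeletal muscle markers ran from 15.4 to 3588 CPM over the 8 tumors. With the mean of the endothelial, pan-leukocyte, acinar or skeletal muscle list as a covariate, the log2 fold change of Vcam1 was 0.84, 0.88, 0.78 and 0.86 in that order. The part of the mesothelial, hepatocyte, carcinoma, fibroblast, pericyte and macrophage markers in the difference was not tested.

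The other members were set against the same lists. The mean log2 CPM of Icam1, Icam2, Sele and Selp relative to the endothelial markers was -2.91 ± 0.43 with WT and -2.30 ± 0.32 with C3-/- hosts (SD, n = 4 per genotype), with WT tumor 4 (-2.44) inside the range of the C3-/- tumors (-2.65 to -1.98). Much of this difference of 0.61 came from Sele, which had 1 count or none in 3 WT tumors, since without Sele the ratio was -1.48 ± 0.30 and -1.19 ± 0.13, a difference of 0.29. Icam2 alone, relative to endothelial markers, had -3.00 ± 0.40 and -2.38 ± 0.30, also with overlap. Itgal and Itgb2 relative to pan-leukocyte markers had -1.26 ± 0.23 and -1.40 ± 0.39, where C3-/- tumor 1 was lowest at -1.98. Itgb2 on this scale had 0.50 ± 0.10 and 0.10 ± 0.38, Itga4 -2.15 ± 0.61 and -1.85 ± 0.83, and Itgb7 -3.25 ± 0.39 and -3.13 ± 0.30. In none of these ratios were the genotypes apart.

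Around the 10 genes, 7 lists of the adhesion pathway held 108 genes, of which 104 were in the table and 95 were tested. In edgeR and in DESeq2, 0 of the 95 had an adjusted p below 0.05. In edgeR 3 were higher and 2 lower in C3-/- tumors at an unadjusted p below 0.05, against 5.11% of all genes, 44 estimates were above 0 and 51 below, and the median log2 fold change was -0.01.

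Among cytokines that induce VCAM-1, their receptors and NF-kB, 19 genes were tested, 12 with an estimate above 0 and 7 below, and their median was 0.11 (log2). Over the 7 lists, the C3-/- tumors were all above the WT tumors for 3 of the 95 genes tested (3.16%, near the 2.28% of all genes), and these 3 genes stand in this list. Irf1, an interferon-induced transcription factor, had 22.0 to 29.0 CPM in WT tumors and 33.0 to 38.3 CPM in C3-/- tumors (log2 fold change 0.49, SE 0.13, adjusted p = 0.933 in edgeR). Nfkb2, the p100 and p52 subunit of the noncanonical NF-kB pathway, had 66.1 to 71.5 CPM and 79.9 to 92.4 CPM (log2 fold change 0.34, SE 0.10, adjusted p = 0.953). Relb, its partner subunit, had 25.4 to 27.3 CPM and 29.4 to 42.7 CPM (log2 fold change 0.36, SE 0.14, adjusted p = 0.971). None of the 3 passed the test over all genes. Il1b, named after its value was seen as the largest estimate of the list, reached 1.10 on the log2 scale (SE 0.64, adjusted p = 0.985 in edgeR), and the canonical subunits Nfkb1 and Rela had 0.11 (SE 0.10) and -0.07 (SE 0.13).

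Among 16 other integrin subunits tested, 8 estimates were above and 8 below 0, and the median was -0.02. Itgam, the alpha chain of the myeloid integrin Mac-1, had 28.5 to 54.2 CPM in WT tumors and 17.5 to 31.2 CPM in C3-/- tumors (log2 fold change -0.57, SE 0.25, adjusted p = 0.971 in edgeR). Itgae, the chain that retains T cells in epithelium, had an estimate of 0.76 (SE 0.35, log2), and Itgb3, which pairs with the alphav chain, of -0.25 (SE 0.13), both with an adjusted p of 0.971 or more. The groups overlapped for each of these genes.

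Among 13 selectin ligands and enzymes of their glycans tested, 6 estimates were above and 7 below 0, and the median was -0.05. B4galt1, a galactosyltransferase that builds the glycans selectins bind, had 366 to 410 CPM in WT tumors and 310 to 365 CPM in C3-/- tumors without overlap (log2 fold change -0.26, SE 0.11, adjusted p = 0.971 in edgeR). Cd34, a sialomucin of endothelium, had -0.30 (SE 0.25), and Spn, the leukocyte sialophorin, 0.42 (SE 0.32) on the same scale. Of 12 other immunoglobulin-family and junction molecules, 4 estimates were above and 8 below 0 (median -0.03), with log2 fold changes of 0.27 (SE 0.18) for Alcam, 0.13 (SE 0.12) for Mcam and -0.20 (SE 0.19) for Pecam1.

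The remaining lists were close to 0. Of 15 genes of integrin activation, 4 estimates were above and 11 below 0 (median -0.06), with 0.24 (SE 0.15) for Sipa1, which switches off Rap1, -0.29 (SE 0.22) for its effector Apbb1ip and -0.23 (SE 0.17) for the exchange factor Rapgef1. Of 12 genes that anchor VCAM-1, signal from it or shed it, 6 were above and 6 below 0 (median 0.01), with 0.20 (SE 0.12) for Adam17, the protease that releases VCAM-1 from the cell surface, -0.16 (SE 0.13) for the anchoring protein Ezr and 0.19 (SE 0.18) for the oxidase subunit Cybb. Of 8 matrix ligands of alpha4 and beta1 integrins, 4 were above and 4 below 0 (median 0), with -0.37 (SE 0.31) for Tnc, -0.22 (SE 0.21) for Emilin1 and 0.12 (SE 0.19) for Spp1.

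**Figure D5:**
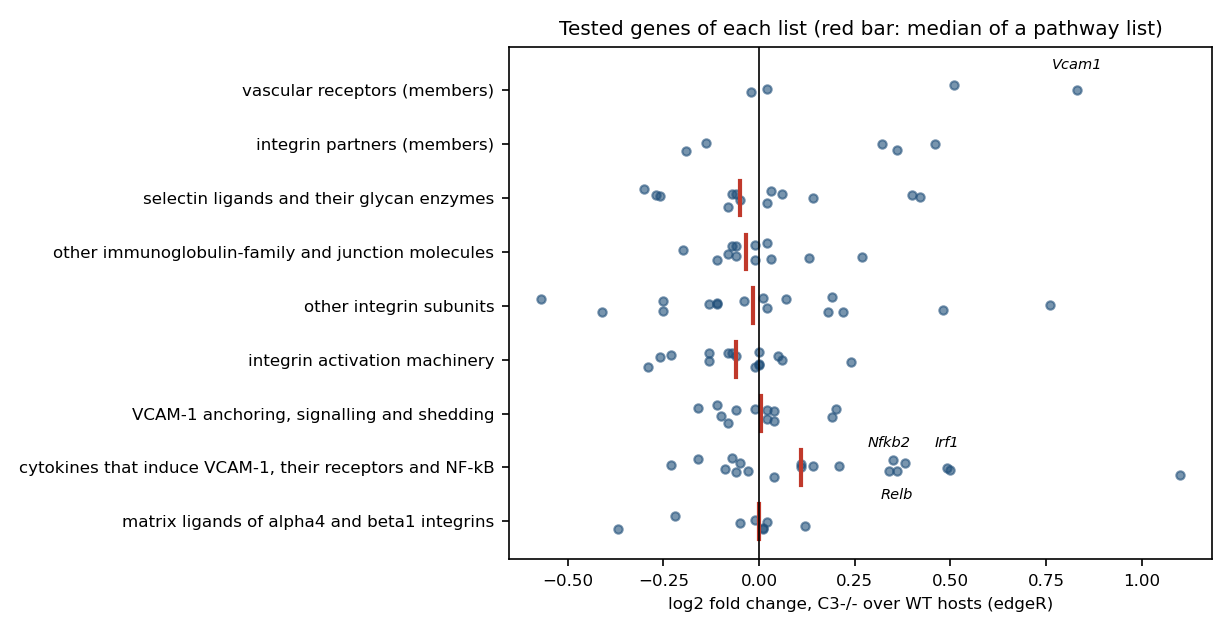
The log2 fold change in C3-/- over WT hosts (edgeR) is on the horizontal axis, with 1 point per tested gene, 1 line per group and a red bar at the median of each pathway list; points are moved up or down at random to keep them apart. The medians of the 7 pathway lists lie between -0.06 and 0.11, and Vcam1 at 0.83 has the highest point of the first line.

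Genes with a pattern like that of Vcam1 were sought among 15291 genes with a mean of at least 1 CPM, by Pearson's r of log2 CPM, as a description over 8 tumors that all these genes share. The highest r was found for Trim46 (0.992), Banp (0.990), Gm2415 (0.986), Sfi1 (0.979) and Zswim3 (0.975). After the mean of each genotype was taken away, the highest r was found for Ankrd46 (0.988), Banp (0.979), Atxn7l2 (0.975), Slc4a2 (0.973) and Crocc (0.970), so Banp was on both lists. Banp had 34.8, 56.1, 29.3 and 29.0 CPM in WT tumors and 68.3, 71.0, 80.4 and 64.6 CPM in C3-/- tumors, which is the order of Vcam1 in having WT tumor 2 as the highest of its group and C3-/- tumor 3 as the highest of all. These genes were picked as the highest, and r over the 8 tumors contains the genotype difference by which Vcam1 was selected. Without such picking, the other adhesion genes that passed the filter had r with Vcam1 between -0.541 (Itgb1) and 0.454 (Itga4) over the 8 tumors, and between -0.736 (Selp) and 0.419 (Icam1) within genotypes.

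The strand setting of the counting is not given in the sources used here, and for 6 of the 10 genes another annotated gene lies on the opposite strand of the same bases. These were Gm43109 for Vcam1, Gm47079 for Icam1, Prr29 for Icam2, Gm57120 for Sele, Gm69625 and Gm16548 for Selp, and Gm39866 and Cerkl for Itga4. Gm43109 shares 1238 bases with Vcam1 and had 0 to 11 counts per tumor against at least 2883 for Vcam1. Cerkl shares 3948 bases with Itga4 and had 6 to 31 counts, against 74 to 265 for Itga4, whose count is the less certain for it. Icam2, Selp and Sele have low counts as well, and reads of the opposite strand could add to them. No overlapping gene was annotated for Itgb1, Itgb7, Itgal or Itgb2.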

How the data were processed

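RNA of 8 tumors was poly-A selected and sequenced in read pairs. The authors deposited raw counts per gene (mm39), made with STAR and HTSeq according to their methods, whereas the labels' tool list names HISAT2 2.0.5 with DESeq2 1.20.0. FPKM values deposited by the authors were, per tumor, the counts per gene length times 1 constant, and served only for levels between genes. The normalized counts, fold changes and p-values of the authors' own comparison were not used.

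Counts were tested with edgeR 4.0.16 in R 4.3.3 (filterByExpr with a minimum count of 10, TMM, glmQLFit, glmQLFTest), with Benjamini-Hochberg adjustment over 16610 genes at a threshold of 0.05. Alternatives were DESeq2 1.42.0, limma-voom (limma 3.58.1), DESeq2's size factors, a robust fit, no filter, a minimum of 10 counts in each tumor, a replicate block, marker lists as covariates and leaving out each tumor. Log2 CPM used a prior count of 2. Ratios over chosen genes carry no p-value.

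Named genes were the 10 members, C3, at most 3 genes per pathway list with the smallest unadjusted p, the 5 genes most like Vcam1 by each measure, and genes overlapping a member. Il1b, Nfkb1 and Rela were named after their values were seen. Members, lists and rules were chosen with earlier results of these data known. No pair of tumors of a genotype looked like 1 library deposited again, with a chi-square per gene of at least 15.2. Total counts of 13.27 M to 23.35 M per tumor set the precision, and counts are not molecules. P-values set the difference between genotypes against the spread between tumors within a genotype, over these 8 tumors.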

Additional observations from a re-analysis of the deposited data

Results flagged for a closer look

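In 48 groups of 4 tumors (adhesion genes, ratios and marker lists within a genotype), 5 held 1 tumor that stood far from the other 3, where chance gives about 1 in 20. Selp had a log2 CPM of 2.62 in C3-/- tumor 4 and of 0.844 to 1.09 in the rest of that group. The log2 ratio of Itgal and Itgb2 to the pan-leukocyte markers was -1.98 in C3-/- tumor 1 against -1.25 to -1.13. The mean log2 CPM of the pan-leukocyte markers was 5.45 in WT tumor 3 against 5.02 to 5.08 in the other WT tumors. Skeletal muscle markers had a mean log2 CPM of -1.41 in C3-/- tumor 2 against 5.27 to 6.48 in the other C3-/- tumors. Acinar markers had a mean log2 CPM of 6.44 in C3-/- tumor 1 against -0.941 to -0.118.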

How the results depend on the processing

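Genes past an adjusted p of 0.05 numbered 0 in edgeR and 16 in DESeq2, and the edgeR count ran from 0 to 4 with 1 tumor left out (4 without C3-/- replicate 1) and was 0 with the replicate block. For tumors with the same number, the correlations of their deviations from the group means were -0.03, 0.49, -0.36 and 0.59. Their signs differ, and without a reference from other pairs they do not settle whether the numbers mark pairs. The block changed no call. The count of adhesion genes called was 1 in DESeq2 (Vcam1), and over 161 refits of the other 9 genes 0 had an adjusted p below 0.05 (smallest 0.448). The log2 fold change of Vcam1 was 0.78 to 0.88 over 11 settings (0.85 with the replicate block), and 0.75 to 0.98 with 1 tumor left out. The direction of 3 adhesion genes and 1 ratio turned in some settings. With the endothelial covariate Icam1 had -0.05 and Selp 0.11. With 1 tumor left out, Icam1 ran from -0.04 to 0.08, Selp from -0.64 to 0.38, Itgb7 from -0.05 to 0.54 and the ratio of Itgal and Itgb2 to pan-leukocyte markers from -0.23 to 0.05, the last being 0.05 without C3-/- replicate 1. The ratio of the vascular receptors other than Vcam1 to endothelial markers was 0.42 to 0.77 in such fits, 0.86 with a prior count of 0.5 in place of 2, and 0.29 with Sele left out of the mean, a setting chosen after seeing the data. The causes were not tested. Sele, with at most 16 counts, was fitted without a filter only, and leaving out each tumor in that fit was added after seeing the data.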
